A study of Homo sapiens with 9 samples.

Results

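The miR-181 family is represented by 6 hairpins in the table of miRNA counts from 9 human small RNA libraries: hsa-mir-181a-1, hsa-mir-181a-2, hsa-mir-181b-1, hsa-mir-181b-2, hsa-mir-181c and hsa-mir-181d. They were taken by name, 6 of 1485 rows, and all 6 passed the minimum of a mean of 10 counts over the HEK293E libraries, as did 773 hairpins in all. The study asked how mature miRNAs change when ERH is depleted with siRNAs. HEK293E, a derivative of a human embryonic kidney line, was transfected by lipofection on days 0 and 3 and harvested on day 5: siGFP and siControl, the control siRNAs, and siERH-3 had 2 libraries each (replicates 1 and 2), and siERH-5 had 1 (replicate 2). K562, a chronic myelogenous leukaemia line, was transfected by electroporation and harvested 4 days later, with 1 siGFP and 1 siERH-5 library. Every library was made from RNA fragments of 18 to 30 nucleotides with 30 spike-in RNAs added. The labels do not say whether replicates came from separate cultures, so p-values measure the spread between these libraries, which may be technical. ERH mRNA was not measured here, so the depletion itself has no check in these data.

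miRNA hairpins are cut from primary transcripts by Microprocessor, the complex of the RNase III enzyme Drosha and the RNA-binding protein DGCR8, and ERH is a small conserved protein that binds DGCR8. Neighbouring hairpins are often cut from one primary transcript. The miR-181 family is best known from the blood system, where miR-181a favours the B lineage and tunes the sensitivity of T cell receptor signalling. All its members carry the same seed, the bases that pair with target mRNAs.

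The 5p strands of the 4 distinct members are shown because they tell which members share reads. The sequences are from RefSeq (GRCh38.p14), and capitals mark the seed, bases 2 to 8.
miR-181a-5p: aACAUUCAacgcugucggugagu
miR-181b-5p: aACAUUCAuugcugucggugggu
miR-181c-5p: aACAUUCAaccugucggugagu
miR-181d-5p: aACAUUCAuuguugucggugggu
Counting positions from 1 at the 5′ end, miR-181a-5p and miR-181b-5p differ by A9U, C10U and A21G, and miR-181b-5p and miR-181d-5p by C12U alone. miR-181c-5p has 22 bases where miR-181a-5p has 23, and 1 edit separates them. By sequence, mir-181c is therefore closest to mir-181a and mir-181d closest to mir-181b. hsa-mir-181a-1 and hsa-mir-181a-2 give the identical 5p strand, and so do hsa-mir-181b-1 and hsa-mir-181b-2. MIR4262 also carries the seed ACAUUCA but had no row among the counted hairpins.

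The copies differ in their 3p strands, which are shown because only these could tell the copies apart. Capitals again mark bases 2 to 8.
miR-181a-3p: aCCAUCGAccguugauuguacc
miR-181a-2-3p: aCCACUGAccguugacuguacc
miR-181b-3p: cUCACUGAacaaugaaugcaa
miR-181b-2-3p: cUCACUGAucaaugaaugca
Between the mir-181a copies the 3p strands are 3 edits apart, and between the mir-181b copies they are 2 edits apart. The counts are given per hairpin with both strands together, so the copies are reported side by side and no difference between them is read as a difference between loci.

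In the genome (GRCh38) the 6 hairpins form 3 pairs, each with mir-181a or mir-181c upstream of mir-181b or mir-181d. hsa-mir-181a-1 (chr1:198859044-198859153, minus strand) lies 61 bases upstream of hsa-mir-181b-1 (chr1:198858873-198858982), both within introns of the noncoding host gene MIR181A1HG. hsa-mir-181a-2 (chr9:124692442-124692551, plus strand) and hsa-mir-181b-2 (chr9:124693710-124693798) are 1158 bases apart in introns of MIR181A2HG, which runs opposite to introns of NR6A1, a nuclear receptor gene. hsa-mir-181c (chr19:13874699-13874808, plus strand) and hsa-mir-181d (chr19:13874875-13875011) are 66 bases apart and are annotated within introns of NANOS3, a gene of germ cell development.

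The hairpins of the 2 tightly spaced pairs are shown because ratios described further on compare the members within them. The pair of mir-181a-2 is not shown, since the reference used held no hairpin sequence for mir-181b-2. Capitals mark the 5p strand.
hsa-mir-181a-1: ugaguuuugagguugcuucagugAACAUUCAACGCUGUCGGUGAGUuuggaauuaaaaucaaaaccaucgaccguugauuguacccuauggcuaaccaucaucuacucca
hsa-mir-181b-1: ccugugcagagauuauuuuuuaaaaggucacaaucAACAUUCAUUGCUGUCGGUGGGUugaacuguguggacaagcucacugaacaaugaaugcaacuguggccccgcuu
hsa-mir-181c: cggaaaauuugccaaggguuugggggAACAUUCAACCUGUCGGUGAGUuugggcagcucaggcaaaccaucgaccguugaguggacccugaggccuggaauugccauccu
hsa-mir-181d: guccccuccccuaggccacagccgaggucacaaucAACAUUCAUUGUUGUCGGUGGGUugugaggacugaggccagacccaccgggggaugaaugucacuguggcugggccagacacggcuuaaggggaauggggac
RNAfold gave these reference hairpins minimum free energies of -35.9 kcal/mol for mir-181a-1, -33.2 for mir-181b-1, -45.2 for mir-181c and -68.1 for mir-181d, which is the longest with 137 bases against 110. Per base, mir-181a-1 was at -0.326 and mir-181b-1 at -0.302 kcal/mol. Both were weaker than the median of -0.474 over 604 hairpins, those of the 773 tested with a reference sequence matched by name. The reference sequences were folded at full length, which differs between hairpins. Of those 604, 577 were more stable per base than mir-181b-1 and 247 more stable than mir-181d. The other copy of mir-181a differed: mir-181a-2 folded at -53.7 kcal/mol, or -0.488 per base, which is stronger than the median. Of the 604, 265 were more stable per base than mir-181a-2. In each of the 4 hairpins shown, 5 bases of the 5p strand were predicted unpaired.

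Library totals ran from 2609929 to 3320017 counts, and the least counted member, hsa-mir-181d, had at least 1069 counts in each HEK293E library. Levels are given as counts per 1e+06 scaled with edgeR's TMM factors (TMM CPM) within a cell line. The 6 blood and erythroid marker hairpins fixed for K562 summed to 391804 and 478964 counts in the K562 libraries and to 5294 to 9431 counts in HEK293E. The 6 epithelial or kidney marker hairpins summed to 4387 to 8836 counts in HEK293E and to 7441 and 11012 in K562, so they did not set HEK293E apart, and none of the 12 was below 3 counts in all libraries of either line.

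In control HEK293E cells mir-181a was the most abundant member. hsa-mir-181a-1 averaged 10059 ± 1131 TMM CPM (SD, n = 4), rank 30 of 773 hairpins, and hsa-mir-181a-2 9844 ± 1116. hsa-mir-181b-1 averaged 5384 ± 524 and hsa-mir-181b-2 5413 ± 556, ranks 55 and 54. hsa-mir-181c, at 1410 ± 246, and hsa-mir-181d, at 940 ± 18, ranked 143 and 167. The neighbours in this order that did not differ beyond their spread were the copies of mir-181a and the copies of mir-181b. Control values of mir-181c (1101 to 1640 TMM CPM) and mir-181d (923 to 963) did not overlap.

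The main result is that the second hairpins of the pairs, mir-181b and mir-181d, and also mir-181c, fell with siERH in HEK293E, whereas mir-181a did not pass the test. edgeR's quasi-likelihood test over 773 hairpins, with Benjamini-Hochberg adjustment, compared the 3 siERH with the 4 control libraries. It called 4 of the 6 rows lower, against a background of 125 hairpins (16.2%) lower and 184 (23.8%) higher. The 4 rows stand for 3 distinct miRNAs, since both copies of mir-181b are among them.

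hsa-mir-181b-1 was at 5419 (siGFP replicate 1), 6082 (siControl replicate 1), 4836 (siGFP replicate 2) and 5200 TMM CPM (siControl replicate 2) in the controls. It was at 2223 (siERH-3 replicate 1), 1927 (siERH-3 replicate 2) and 1923 (siERH-5 replicate 2) after ERH siRNA. All 3 siERH libraries lay far below the lowest control. edgeR gave a log2 fold change of -1.41 (SE 0.15) for hsa-mir-181b-1 and of -1.42 (SE 0.15) for hsa-mir-181b-2, each with an adjusted p of 8.0e-05.

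hsa-mir-181d had nearly equal levels in the control libraries, 923, 963, 944 and 929 TMM CPM in the same order. After ERH siRNA it was at 334, 326 and 358. The groups were far apart relative to the spread within either, and edgeR gave a log2 fold change of -1.47 (SE 0.15) with an adjusted p of 8.0e-05. It differed from that of mir-181b by less than 1 SE.

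hsa-mir-181c, the first hairpin of its pair, was at 1101 and 1327 TMM CPM in the replicate 1 controls and at 1572 and 1640 in the replicate 2 controls. In the siERH libraries it was at 598, 655 and 711. Its control levels were split by replicate number, unlike those of its neighbour mir-181d, but no siERH library reached them. In the edgeR fit it fell by 1.11 on the log2 scale, with an SE of 0.18 and an adjusted p of 0.0011.

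hsa-mir-181a-1, upstream of mir-181b-1, was at 10121, 11614, 9016 and 9487 TMM CPM in the controls and at 8873, 7608 and 7906 with siERH. The siERH libraries were again below all controls, but the gap was only 9016 to 8873. For each copy of mir-181a, edgeR estimated -0.31 on the log2 scale with an SE of 0.15, at an adjusted p of 0.12. DESeq2 did call both, at -0.37 (adjusted p = 0.045). On the TMM scale the 3 siERH libraries were below the 4 controls in all 6 rows, as they were for 148 of 773 hairpins (19.1%). Scaled by library totals alone, mir-181a-1 was at 9694 CPM in siERH-3 replicate 1 and 8582 in siERH-5 replicate 2. Both were above the replicate 2 controls, at 8196 (siGFP) and 8141 (siControl), while siERH-3 replicate 2 stayed below them at 8033. The order was the same for mir-181a-2. On that scale mir-181b, mir-181c and mir-181d were still below all controls in every siERH library.

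**Figure D1:**
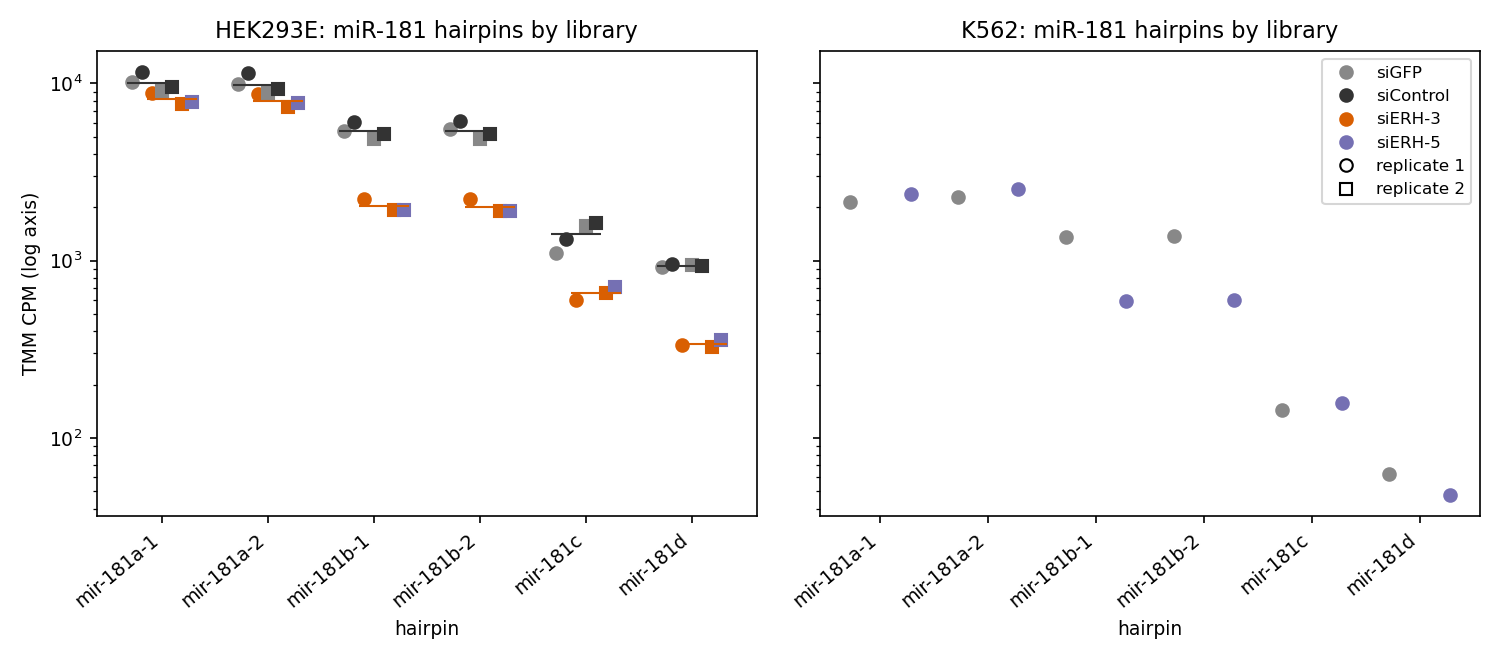
TMM CPM (log axis) of the 6 miR-181 hairpins in the 7 HEK293E libraries (left) and the 2 K562 libraries (right), each point 1 library, coloured by siRNA and shaped by replicate number, with lines at the means of the control and siERH libraries in HEK293E. The siERH points of mir-181b, mir-181c and mir-181d are well below the control points in HEK293E, those of mir-181a lie close to them, and in K562 mir-181b is the member that is at least 2-fold lower.

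The decreases were seen with each ERH siRNA. siERH-3 alone, against the 4 controls, was called lower for mir-181b, mir-181c and mir-181d (background 87 of 759 hairpins, 11.5%, or 142 hairpins with the replicate number as a block), with log2 fold changes of -1.37 and -1.38 for the mir-181b copies, -1.16 for mir-181c and -1.50 for mir-181d. Without siERH-3 replicate 1 mir-181c was at -1.08 (edgeR adjusted p = 0.072), and without siERH-3 replicate 2 at -1.21 (edgeR adjusted p = 0.062), so the call was lost while the size of the decrease was similar. The single siERH-5 library, set against the replicate 2 controls without a test, differed by -1.38 (mir-181b-1), -1.18 (mir-181c) and -1.39 (mir-181d) on the log2(TMM CPM + 1) scale, where 58 of 773 hairpins (7.5%) were at least 2-fold lower. The matching siERH-3 library, replicate 2, gave -1.38, -1.29 and -1.52 against the same controls, where 51 hairpins (6.6%) were at least 2-fold lower. For mir-181a-1 these differences were -0.23 (siERH-5) and -0.28 (siERH-3), and the first turned to 0.07 when libraries were scaled by their totals alone.

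Between the control siRNAs no miR-181 hairpin was called, and none of 730 hairpins passed (0.0% lower and 0.0% higher). 24 had an unadjusted p under 0.05, and DESeq2 called 2 lower and 2 higher. With the replicate number as a block, edgeR called 61 lower and 72 higher, none of them a miR-181 hairpin. The replicates also differed: on the log2 scale, replicate 1 minus replicate 2 was 0.17, 0.29 and 0.22 for mir-181a-1 in siGFP, siControl and siERH-3. For mir-181c the same differences were -0.51, -0.31 and -0.13. mir-181a and mir-181b were thus higher and mir-181c lower in replicate 1, in each of the 3 siRNAs with both replicates.

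Ratios of hairpins within a library need no scaling between libraries. On raw counts, the log2 ratio of mir-181a-1 to mir-181b-1 was 0.90 (siGFP) and 0.93 (siControl) in replicate 1 and 0.90 (siGFP) and 0.87 (siControl) in replicate 2. In the siERH libraries it was 2.00 (siERH-3 replicate 1), 1.98 (siERH-3 replicate 2) and 2.04 (siERH-5 replicate 2). The groups did not come near each other: the ratio averaged 0.90 ± 0.03 (SD, n = 4) in controls and 2.01 ± 0.03 (SD, n = 3) with siERH, a difference of 1.11, or 2.15-fold. In shares, mir-181b-1 made up 34.4% to 35.4% of the counts of the pair in the controls and 19.6% to 20.2% with siERH. The exact permutation test, two-sided over 35 splits, gave p = 0.0286, the smallest it allows, and adjusted over the 31 ratios tested it was 0.098. At the threshold of 0.05 this ratio therefore did not pass after adjustment, and neither did any other listed pair. Every ratio at the smallest p got the same adjusted 0.098, also mir-212 to mir-132, which changed by -3.25. With so few splits the adjusted test could hardly pass any pair, so its failure does not show that a ratio was unchanged. limma fitted over the 31 ratios, an alternative added after the data were seen, gave this ratio an adjusted p of 1.5e-05.

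The pair on chromosome 9 had nearly the same ratios, and since its 5p strands are identical to those of the chromosome 1 pair it is no independent measurement. The log2 ratio of mir-181a-2 to mir-181b-2 was 0.86 ± 0.02 (SD, n = 4) in controls and 1.98 ± 0.04 (SD, n = 3) with siERH. The difference of 1.12 did not pass after adjustment either, with the same limit of the test (exact permutation p = 0.0286, adjusted 0.098). In HEK293E the count of mir-181a-2 per count of mir-181a-1 was 0.973 to 0.984, and of mir-181b-2 per mir-181b-1 0.992 to 1.02. In K562 mir-181a-2 had the higher count of the copies, at 1.06 per count of mir-181a-1 in both libraries.

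For mir-181c and mir-181d, both of which fell, the ratio moved less. The log2 ratio of mir-181c to mir-181d was 0.25 and 0.46 in the replicate 1 controls (siGFP, siControl), 0.74 and 0.82 in the replicate 2 controls, and 0.84, 1.01 and 0.99 with siERH. The highest control lay just under the lowest siERH library. Means were 0.57 ± 0.26 (SD, n = 4) and 0.95 ± 0.09 (SD, n = 3), a difference of 0.38 that did not pass the test (exact permutation p = 0.0857, adjusted 0.177). With limma over the 31 ratios it did not pass either, at an adjusted p of 0.102. Within replicate numbers the difference was 0.48 in replicate 1 and 0.22 in replicate 2. The shift of the a-to-b ratio exceeded that of the c-to-d ratio by 0.73 on the log2 scale (exact permutation p = 0.0571), a comparison added after the data were seen.

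**Figure D2:**
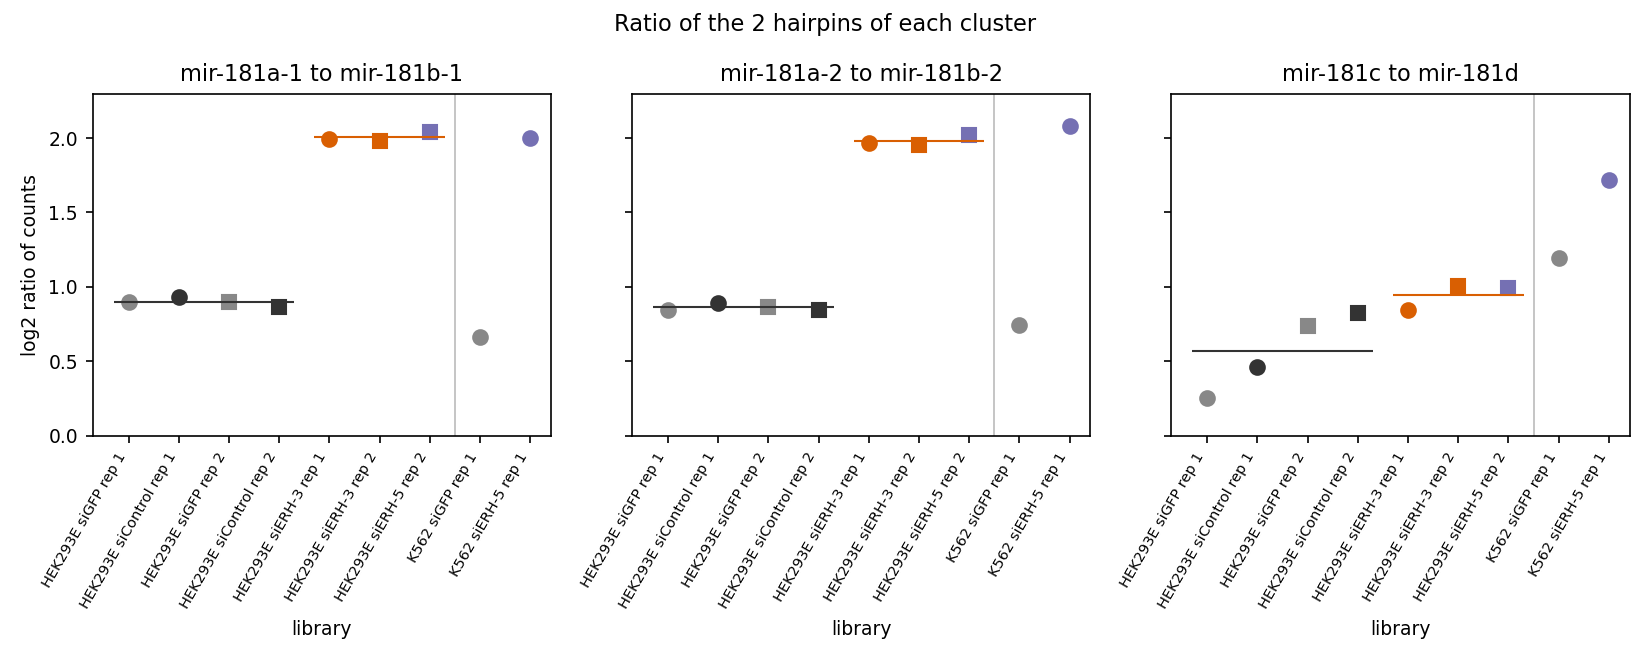
log2 ratio of raw counts of the first to the second hairpin of each pair, by library, for mir-181a-1 to mir-181b-1 (left), mir-181a-2 to mir-181b-2 (middle) and mir-181c to mir-181d (right). Each point is 1 library and lines are the means of the 4 control and 3 siERH libraries of HEK293E. The a-to-b ratios sit near 0.9 in controls and near 2.0 with siERH, while the c-to-d ratios of the controls are split by replicate number and almost reach those of siERH.

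Ratios were also taken across the pairs, between the first hairpins and between the second hairpins, whose 5p strands are 1 edit apart in either case. The log2 ratio of mir-181a-1 to mir-181c was 2.85 ± 0.37 (SD, n = 4) in controls and 3.63 ± 0.22 (SD, n = 3) with siERH, a difference of 0.79 that did not pass the test (exact permutation p = 0.0571, adjusted 0.148). limma over the 31 ratios gave an adjusted p of 0.029. For the second hairpins, the log2 ratio of mir-181b-1 to mir-181d, added after the data were seen, was 2.51 ± 0.13 (SD, n = 4) and 2.57 ± 0.15 (SD, n = 3), a difference of 0.06 (exact permutation p = 0.571). In K562 these between-pair ratios differed in another way: mir-181a-1 to mir-181c was 3.91 with siGFP and 3.92 with siERH-5, and mir-181b-1 to mir-181d was 4.45 and 3.63.

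Beside 27 other pairs of neighbouring hairpins, listed with earlier results known, the a-to-b shift was upward and large. In 10 of the 27 (37.0%) the control and siERH ratios did not overlap, and all 3 miR-181 pairs were of this kind. The median size of the change was 0.38, close to that of the c-to-d pair, and 15 of 27 were larger than c-to-d. 5 pairs changed by more than mir-181a-1 to mir-181b-1, all of them downward. The largest decrease was that of mir-212 to mir-132, at -3.25, and the largest increase outside the family was that of mir-195 to mir-497, at 0.69, with overlapping libraries.

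**Figure D3:**
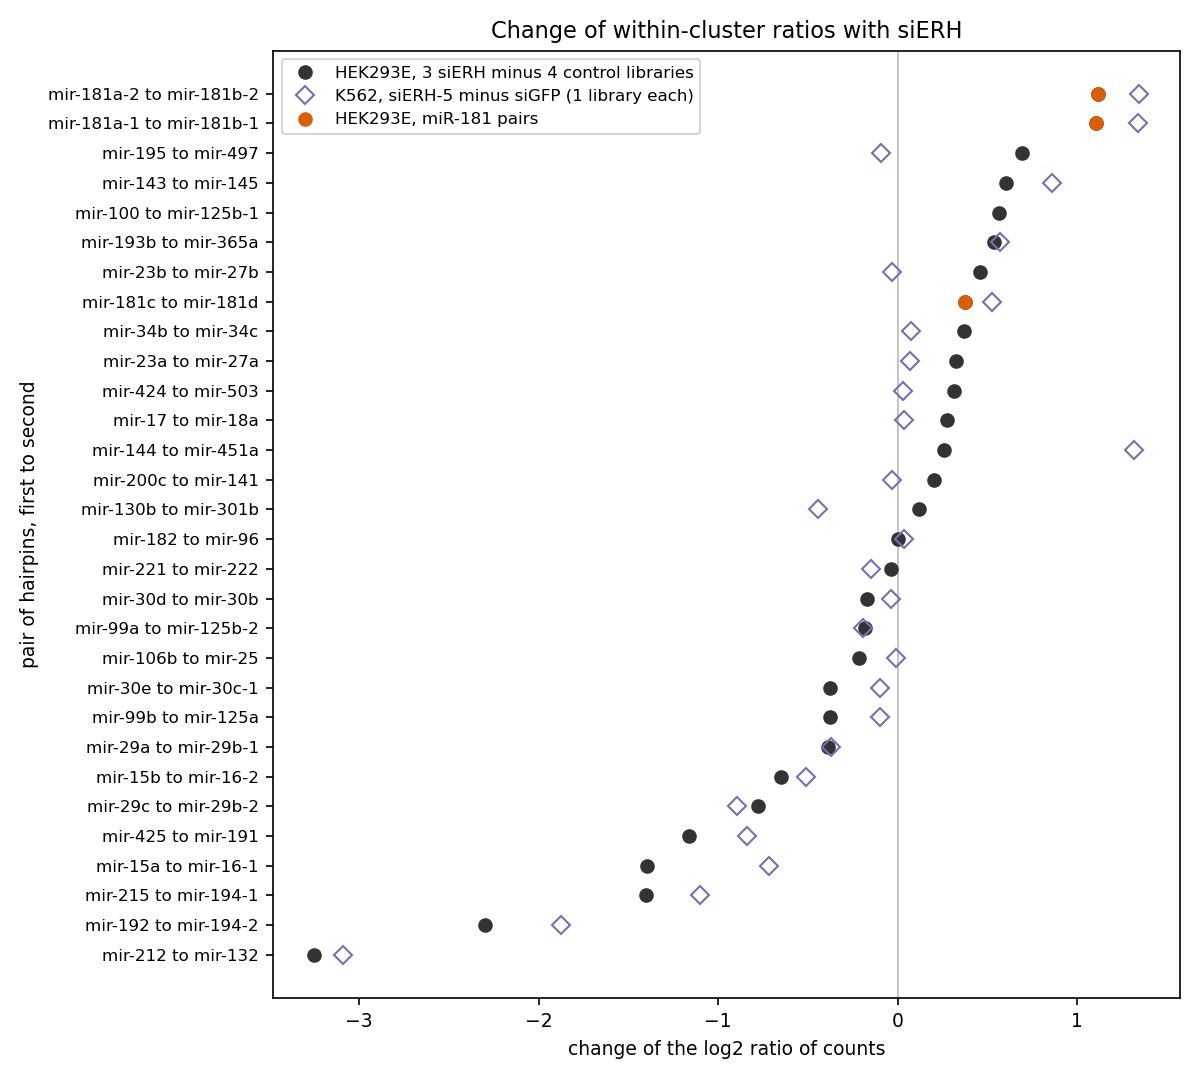
Change of the log2 ratio of first to second hairpin for the 30 listed pairs, ordered by the change in HEK293E (filled circles, mean of 3 siERH minus mean of 4 control libraries, miR-181 pairs in orange), with the change between 1 siERH-5 and 1 siGFP library of K562 (open diamonds, drawn where both hairpins had at least 10 counts). Both a-to-b pairs have the largest increases in HEK293E, 1.11 and 1.12, and increases of 1.34 in K562.

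As a whole the family took a smaller part of the library with siERH in HEK293E. With each copied pair counted once, it held 1.89% of the library total with siGFP and with siControl in replicate 1, and 1.48% (siGFP) and 1.47% (siControl) in replicate 2. The library total counts every row in full, copies included, so these percentages are lower than a share by rows. With siERH the family held 1.30% (siERH-3 replicate 1), 1.10% (siERH-3 replicate 2) and 1.18% (siERH-5). Its make-up also differed. mir-181a supplied 54.8% to 57.8% of the family's counts in the controls and 72.1% to 73.5% with siERH. mir-181b supplied 29.7% to 31.2% and 17.7% to 18.6%. mir-181d supplied 4.84% to 5.80% in the controls, and 2.80% (siERH-3 replicate 1), 3.13% (siERH-3 replicate 2) and 3.30% (siERH-5) with siERH. The shares of mir-181c overlapped, at 6.29% to 9.67% in the controls and 5.02% to 6.56% with siERH. These are shares of one total, so a higher share of mir-181a does not mean that mir-181a itself was higher.

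**Figure D4:**
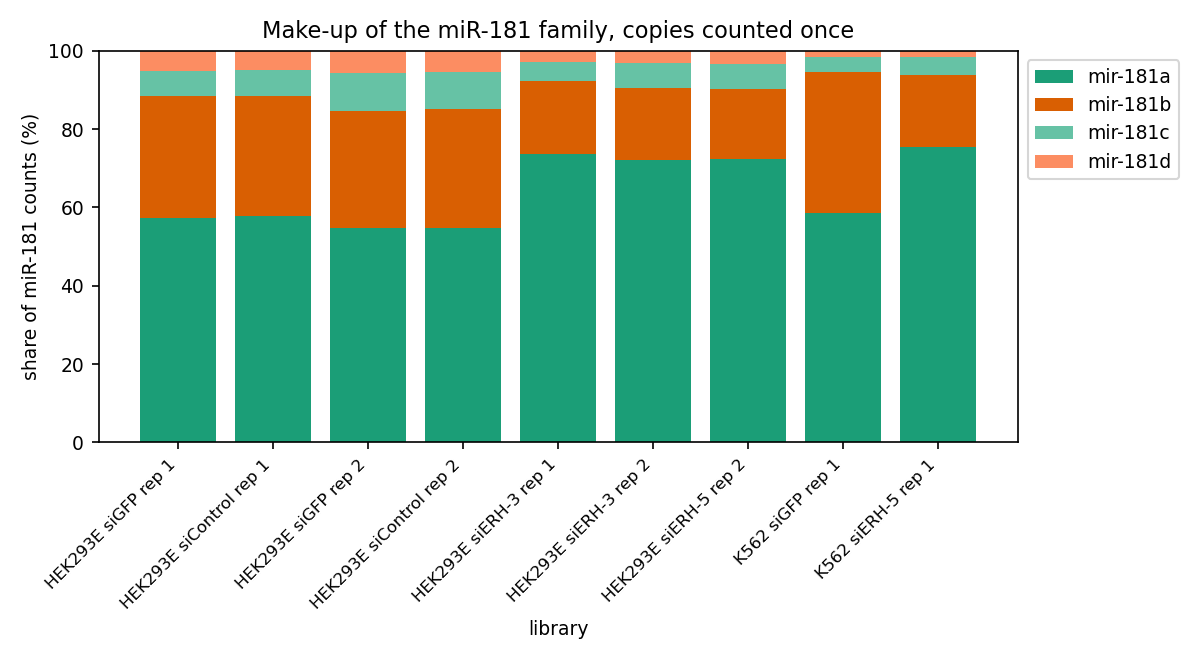
Share (%) of mir-181a, mir-181b, mir-181c and mir-181d in the counts of the miR-181 family in each of the 9 libraries, as stacked bars that add up to 100, with the copies of mir-181a and of mir-181b averaged. mir-181b takes about 30% in the HEK293E controls and 36.0% in K562 siGFP, and between 17.7% and 18.6% in every siERH library of both lines.

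In K562 the family was a minor part of the library. With each copied pair counted once, it held 0.344% of the library total with siGFP and 0.359% with siERH-5. Against the HEK293E siGFP libraries, on a 9-library TMM scale, K562 siGFP was lower by log2 differences of -1.16 for mir-181a-1, -0.92 for mir-181b-1, -2.23 for mir-181c and -2.90 for mir-181d. The median of 790 hairpins was -0.21, and 254 of them (32.2%) were at least 2-fold lower. Scaling by library totals moved that median to -1.24 and the members to -2.29, -2.05, -3.32 and -4.01. The chromosome 19 pair stood furthest below HEK293E on both scales. Cell line, transfection method and day of harvest cannot be told apart in this comparison, and it has 1 K562 library and no test.

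With siERH-5 in K562, mir-181b was again lower, from 1361 to 593 TMM CPM for mir-181b-1 (3226 and 2171 counts). The log2 differences were -1.20 for both mir-181b copies, and 44 of 646 hairpins (6.81%) were at least 2-fold lower. mir-181a-1 was at 2154 and 2376 TMM CPM, a log2 difference of 0.14, near the median of all hairpins of 0.11. mir-181c, at 143 and 157 TMM CPM from 339 and 576 counts, also differed by 0.14. mir-181d, at 62.4 and 47.8 TMM CPM from 148 and 175 counts, differed by -0.38, with a 95% counting interval of ± 0.32. On library totals every one of these values was higher, with mir-181b at -0.92, mir-181a and mir-181c at 0.42 and the median at 0.37. With 1 library per group the K562 values have no replicate check.

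The a-to-b ratio in K562 started lower than in HEK293E and ended at a similar value, a change of 1.34 in the single pair of libraries. The log2 ratio of mir-181a-1 to mir-181b-1 was 0.66 with siGFP and 2.00 with siERH-5, and mir-181b-1 made up 38.7% of the pair (95% Wilson interval 37.7% to 39.8%) with siGFP and 19.2% to 20.7% (interval) with siERH-5. The siGFP share was above that of every HEK293E control, and the siERH-5 share was within the range of the HEK293E siERH libraries. For the copy mir-181b-2 the siERH-5 share was 19.1%, below the 19.8% to 20.5% of those libraries. The log2 ratio of mir-181c to mir-181d was 1.20 and 1.72, and the share of mir-181d was 30.4% (26.5% to 34.6%) and 23.3% (20.4% to 26.5%). These intervals cover counting error only, and reads without molecular identifiers are not independent molecules.

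Hairpins whose levels followed the members most closely were found by Pearson's r of log2(TMM CPM + 1) over the 7 HEK293E libraries, among 767 hairpins outside the family. These r values describe 7 points that share library and siRNA, and carry no test. Closest to mir-181a-1 were mir-1237 (r = 0.984), mir-615 (0.980) and mir-99b (0.968). Closest to mir-181b-1 were mir-425 (0.995), mir-3677 (0.989) and mir-589 (0.987). The closest to mir-181c were mir-15a (0.998), mir-98 (0.993) and mir-191 (0.992), and to mir-181d mir-192 (0.997), mir-1306 (0.995) and mir-3677 (0.994). Levels of these hairpins differed widely. mir-1237 and mir-3677 were low, with means of 14.1 and 42.7 TMM CPM over the 7 libraries. The others ran from 89.3 (mir-98) to 6674 (mir-15a). mir-3677 is shared by mir-181b-1 and mir-181d, and mir-99b, mir-425, mir-15a and mir-192 are first hairpins of listed pairs, while mir-191 is the second hairpin of the pair of mir-425. Within the family, r was 0.986 between mir-181b-1 and mir-181d, 0.951 between mir-181c and mir-181d, 0.867 between mir-181a-1 and mir-181b-1 and 0.627 between mir-181a-1 and mir-181c. By r, the mir-181b-1 row was thus closer to mir-181d than to mir-181a-1. The libraries span both arms, so these r values also hold the siERH differences already given (-1.41, -1.47 and -0.31 for mir-181b-1, mir-181d and mir-181a-1). Copies share reads, so r is not read by locus.

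Of 12 hairpins listed for blood cells, the setting in which miR-181 is best known, 11 were tested in HEK293E. Like the pairs, they were listed with earlier results known. The list is mixed, as some of its hairpins had fewer counts in K562 than in HEK293E. With siERH 2 were called lower and 1 higher, against the same backgrounds of 16.2% and 23.8%. Their median log2 fold change was -0.32, beside -0.01 over all 773 hairpins.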

How the data were processed

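The authors deposited raw counts per miRNA hairpin for 1485 hairpins and a table of RPM values, which recomputation showed to be the count plus 1 over the library total plus the number of rows. The submitters' processing notes name cutadapt, Bowtie2, bedtools and the build hg38, with no versions; how reads that match several hairpins were counted is not given in the sources used here. Columns were matched to libraries by cell line, siRNA and replicate number. Blank cells were read as 0.

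Hairpins averaging 10 counts or more were fitted with edgeR 4.0.16 (R 4.3.3; TMM, quasi-likelihood, Benjamini-Hochberg, adjusted p under 0.05), with DESeq2 1.42.0 and limma 3.58.1 as alternatives. Differences with 1 library in an arm are log2(TMM CPM + 1) with no test. Ratios are of raw counts, with exact permutation tests that enumerate all splits. Wilson intervals were computed with scipy 1.17.1. Hairpins were folded with RNAfold 2.7.2. On simulated data for the siERH comparison (773 hairpins), edgeR called 142 of 200 hairpins changed by 1 on the log2 scale and 4 others. The simulated libraries were independent, with no replicate effect. They therefore do not give the error rate for libraries that deviate together by replicate number. Spike-in RNAs were not used. Positions are from GENCODE and RefSeq.

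Same-numbered HEK293E libraries deviated together over 773 hairpins (r = 0.69, 0.48 and 0.52). The labels put each replicate number in its own experimental group, so the numbers can pair the samples. The main edgeR fits and the permutation tests over 35 splits did not use this pairing. It was used in the replicate block, an alternative, and where libraries were compared within a replicate number. The members and lists were chosen with earlier results of these data known. Apart from the members, named hairpins were the 3 outside the family with the highest Pearson r to mir-181a-1, mir-181b-1, mir-181c and mir-181d, and the listed pairs with the largest decrease and increase of the ratio. Alternatives were other scalings, filters, pseudocounts and tools, each library left out, each control alone, other partners for a ratio, and the replicate block.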

Additional observations from a re-analysis of the deposited data

Results flagged for a closer look

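The K562 siERH-5 library stood on the other side of its control from all 3 siERH libraries of HEK293E for 3 hairpins, on the TMM scale. The log2 ratio of siERH-5 to siGFP in K562 was 0.14 for hsa-mir-181a-1, 0.14 for hsa-mir-181a-2 and 0.14 for hsa-mir-181c, while each HEK293E siERH library was below its controls. The difference between the cell lines was not tested, since K562 has 1 library per group. All 3 values were close to the median of all K562 hairpins, 0.11, and for mir-181c the 95% counting interval of ± 0.19 includes 0. None of the 11 sets of 4 control values examined held a library far from the others.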

How the results depend on the processing

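The calls of mir-181b, mir-181c and mir-181d in the siERH comparison held under all 19 alternatives, with log2 fold changes of -1.51 to -1.22 (mir-181b-1), -1.52 to -1.23 (mir-181b-2), -1.21 to -0.89 (mir-181c) and -1.56 to -1.26 (mir-181d). mir-181a-1 ran from -0.41 to -0.11 and was called by DESeq2 only. Library totals moved the median of all hairpins from -0.01 to 0.19 and the share of lower hairpins among those called from 40.5% to 24.0%; limma on log2(RPM + 1) gave 21.0% and the 100 CPM filter 54.2%. Lower hairpins numbered 67 with library totals, 45 (and 38 higher) with a mean of at least 100 CPM, and 58 or 59 with limma (pseudocount 1 or 10); leaving out 1 library gave 76 (without siERH-3 replicate 2) to 130 lower, 77 without siERH-3 replicate 1, and 136 to 189 higher. For siERH-3 the same settings gave 48, 30 (27 higher), 43 and 45 lower, and the replicate block, which pairs libraries by number, 142; leaving out 1 library gave 19 (without siERH-3 replicate 1) to 102 lower, 24 without siERH-3 replicate 2 and 51 without siControl replicate 1, and 42 to 152 higher. For siControl against siGFP, DESeq2 and no filter each gave 2 lower and 2 higher and the block 61 and 72; leaving out 1 library gave 0 lower and 0 to 1 higher. The block changed no call of a miR-181 hairpin in the siERH comparison; mir-181a-1 was -0.27 (edgeR adjusted p = 0.063) under it. The a-to-b difference was 1.11 with the block (exact permutation p = 0.0556, the smallest that pairing allows) and 1.09 to 1.12 without 1 library. Where a left-out library or the block allows no p under 0.05, ratios were compared by size. mir-181a-1 over mir-181d in place of mir-181c gave 1.17 (exact permutation p = 0.0286), and limma over the ratios 0.79 with adjusted p = 0.029; mir-181b-1 to mir-181d ran from -0.0189 (without siERH-3 replicate 1) to 0.14 without 1 library. The siERH-5 values of mir-181a-1 and mir-181a-2 turned to 0.0712 and 0.0797 with library totals and to 0.0713 and 0.0797 with deposited RPM, and the 1 miR-181 name at least 2-fold lower in K562 became 0 with either.

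Values of the control siRNA comparison lay near 0 and changed sign. With library totals they were -0.000292 (mir-181b-1), -0.0105 (mir-181b-2) and -0.116 (mir-181d). limma gave -0.00733 and -0.00733 for mir-181b-2 and -0.115 and -0.114 for mir-181d (pseudocounts 1 and 10), and the 100 CPM filter -0.0416 for mir-181d. Leaving out 1 library gave -0.0262 to 0.272 (mir-181a-1), -0.0262 to 0.274 (mir-181a-2), -0.0143 to 0.241 (mir-181b-2), -0.0644 to 0.413 (mir-181c) and -0.022 to 0.036 (mir-181d). The cause was not tested. Depth limits mir-181d in K562 most, at 148 counts.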
